A study of Homo sapiens with 12 samples.

Results

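The peaks described here are regions that the authors list as sites of acetylated mRNA, called in every one of the 3 vector control replicates. The cells are HaCaT, a long-established human keratinocyte line. Each control replicate has its own list of peaks, made from an IP library set against an input library. A core peak is a peak of control replicate 3 that shares at least 1 base with a peak of control replicate 1 and with a peak of control replicate 2. This gave 1818 core peaks on 1456 named genes, which is 16.8% of the 10838 peaks of control replicate 3 and 24.4% of the 5956 genes with a peak there. The whole series holds 61804 peaks.

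The study used acetylated RNA immunoprecipitation sequencing (acRIP-seq) in HaCaT cells that received either an empty plasmid or a plasmid for overexpression of NAT10. There were 3 replicates of each of the 2 groups and an input and an IP library for each replicate, or 12 libraries in all. The 6 control libraries are the only ones described below. The controls carry the empty vector, so they are transfected cells and not untouched ones, and the labels do not say whether the replicates were separate cultures. The lists carry no read counts, so the depth behind a peak is unknown.

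N4-acetylcytidine (ac4C) is a cytidine that carries an acetyl group on its base. NAT10 is the enzyme known to place it, on ribosomal RNA, on tRNA together with the adaptor THUMPD1, and, as has been described, on mRNA. In the assay, RNA fragments are captured with an antibody against ac4C, and a peak marks a stretch where the IP library is higher than its background. The fold printed with each peak is that ratio on a linear scale, as the authors' peak caller gave it. Keratinocytes are the main cells of the epidermis, held together by desmosomes and other junctions and to their base by hemidesmosomes.

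The 3 lists differ in size and in quality by the authors' own measures. Control replicate 1 has 4324 peaks on 3137 genes, replicate 2 has 19261 on 7919 genes and replicate 3 has 10838 on 5956 genes. The authors' false discovery rate, read as percent, was 100 for every peak of replicate 1, and the lowest values were 29.28 in replicate 2 and 76.31 in replicate 3. So no core peak has a low false discovery rate in any list, and the core describes recurrence between lists and not certainty of a site. The smallest list bounds the core most: 42.1% of the peaks of replicate 1 match a core peak, against 9.65% in replicate 2. Without the overlap with replicate 1, 4246 peaks of replicate 3 would qualify, and without that with replicate 2, 3006. Peaks of replicate 2 that overlap one of replicate 1, with replicate 3 left out, number 2226.

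The sequences in and beside the core peaks with the highest folds are shown first, because they show what kind of RNA leads the ranking. They were read from RefSeq tables of GRCh38.p14. The third-ranked core peak, which the files assign to SHF, runs over chr15:45200916-45201175 and ends inside TRH-GTG1-9, a gene for histidine tRNA at chr15:45201151-45201222. The 25 bases that the peak and the tRNA gene share, on the plus strand at chr15:45201151-45201175, are the end of the tRNA gene that the peak reaches.
TRH-GTG1-9 piece: gccgtgatcgtatagtggttagtac

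Below are the first 30 bases of 6 genes whose annotated start lies in a core peak, chosen to show starts with and without a motif and not at the rate at which it occurs. Capitals mark the first run of 4 CNN units, each a C followed by any 2 bases. It was searched because a repeat of such units has been described at ac4C sites of human mRNA. GNB1 (chr1:1891058-1891087, minus strand), TNKS2 (chr10:91798426-91798455, plus strand), TAB2 (chr6:149317712-149317741, plus strand) and STK24 (chr13:98577078-98577107, minus strand) have a match in these bases. LMNB2 (chr19:2456930-2456959) and AKT1 (chr14:104795719-104795748), both on the minus strand, have none there. Of the 40 annotated starts in the core peaks with the highest lowest-of-3 folds, with 1 chromosome not used here, 9 have a match in the first 30 bases. The share over all starts was not counted for 30 bases, so these 9 cannot be read as many or few.
GNB1: aggggcCCGCCGCGCCCAtcccgatggctg
TNKS2: agCTTCCGCCGCCGcgtcgtttcaggaccc
TAB2: gtcgtttttgatCTGCTGCAGCCGccggcg
STK24: aCTCCGGCTCCAGcggccagcgcgcgcggg
LMNB2: atcttgcagccggcggcgcggattgaatga
AKT1: ggcggcggcaggaccgagcgcggcaggcgg

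The C repeat was common at these starts, but its complement was more common. Among 384 starts, on 371 genes, whose first 50 bases lie wholly in a core peak of the same gene, 44.0% held the repeat on the gene's own strand and 68.5% held it on the other strand. The same shares were 39.3% and 56.4% for 970 starts in other peaks of replicate 3, and 29.7% and 42.1% over 22183 starts of coding genes with the same window. Base composition moved with these shares: the core starts averaged 32.4% C and 40.2% G, against 29.3% C and 33.5% G over all coding starts, and its part in them was not tested. In control replicate 1, whose list is the shortest, the repeat on the gene's own strand was at 42.8% in peaks that match the core and 44.2% in the others. A match is a string of letters and shows no acetylated base.

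Of the 15 core peaks with the highest folds, 5 lie on or within 100 bases of a small structured RNA gene or a copy of a mitochondrial RNA, and 3 of these hold the first 3 ranks. Peaks are ranked here by the lowest of the 3 folds, so that no single list can lift a peak. The peak assigned to ERCC1, a DNA repair nuclease subunit, had folds of 554, 511 and 822 in the order of the replicates, 1 to 3, which holds for all folds below. It lies at chr19:45478736-45478828, outside the RefSeq span of ERCC1 and 49 bases from TRU-TCA1-1, the gene of the selenocysteine tRNA. MTRNR2L12, a copy of mitochondrial rRNA in the nuclear genome, had 517, 204 and 269.8. Reads of near-identical copies cannot be told apart there, so that value is uncertain.

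The SHF peak shown above had folds of 208, 248 and 191, close to each other in all 3 lists. WDR74, a ribosome assembly factor, had 36.4, 26.3 and 46.7 at chr11:62841569-62841809, over all 191 bases of RNU2-2, a gene for the U2 spliceosomal RNA. The 4 described here are high in every list, and in all but MTRNR2L12 the small RNA and the gene named in the files are different transcripts.

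Further down the ranking, small RNA genes lie beside 5 more core peaks. The TMEM107 peak, with folds of 17.4, 8.81 and 10.7, covers SNORD118, the U8 small nucleolar RNA that takes part in ribosomal RNA maturation. The PLCG2 peak had 109, 7.71 and 23.2 and covers RN7SKP176, a copy of the 7SK RNA. MTRNR2L8, a second nuclear copy of mitochondrial ribosomal RNA, had 432, 10.4 and 156. The last 2 of these are far higher in replicate 1 than in replicate 2, unlike the peaks at the top of the ranking. PLXDC1, with 11.2, 11.1 and 16.1, and KAT6B, with 6.01, 7.93 and 7.07, lie 97 and 90 bases from a tRNA and a small nucleolar RNA gene. In all, 10 core peaks lie within 100 bases of one of 5315 such genes. That is 0.55% of the core, against 0.0887% of the other peaks of replicate 3; the same shares were 0.549% and 0.28% in replicate 1 and 0.538% and 0.0575% in replicate 2.

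**Figure D1:**
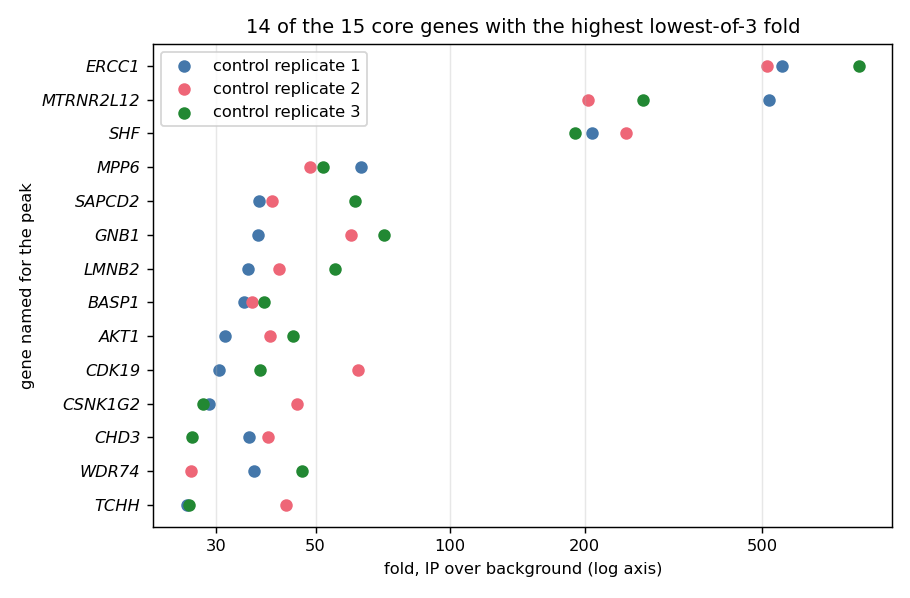
Fold of IP over background (log axis) of 14 of the 15 core genes with the highest lowest-of-3 fold, 1 point for each control replicate. ERCC1, MTRNR2L12 and SHF stand above the rest, with every point above 190, and the genes from SAPCD2 down lie between 25.7 and 71.3.

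The remaining 10 of the first 15 are genes of signalling, chromatin and the cell's frame, with the small RNA search finding nothing within 100 bases. MPP6, a membrane scaffold of the guanylate kinase family, had folds of 63.2, 48.7 and 52.1. GNB1, a beta subunit of heterotrimeric G proteins, had 37.3, 60.0 and 71.3, and AKT1, a kinase that acts in growth and survival signalling, had 31.3, 39.5 and 44.5. SAPCD2, a protein of spindle orientation, had 37.3, 39.98 and 61.4. The 3 last named were lowest in replicate 1 and highest in replicate 3, and in GNB1, AKT1 and SAPCD2 the peak covers a gene start.

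LMNB2, which encodes lamin B2 of the nuclear envelope, had 35.4, 41.4 and 55.4 at its start and 3 core peaks in all. BASP1, a membrane-bound signalling protein, was the most even of these genes, with 34.6, 36.0 and 38.4. CDK19, a kinase of the Mediator complex, had 30.4, 62.4 and 37.5, and CSNK1G2, a casein kinase, had 28.9, 45.4 and 28.0. CHD3, a remodeller of the NuRD complex, had 35.4, 39.1 and 26.4. TCHH encodes trichohyalin, a protein of hair follicle and cornified cells, and had 25.7, 43.0 and 26.1 over a core peak of 2562 bases. CDK19, CSNK1G2, CHD3 and TCHH were highest in replicate 2.

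Across the whole core, the folds were far lower than in these genes and only partly shared between lists. The median fold was 7.14 in replicate 1, 9.55 in replicate 2 and 8.80 in replicate 3, and the median of the lowest fold was 6.04. The lowest fold was at least 5 in 1300 core peaks (71.5%), at least 10 in 287 (15.8%) and at least 20 in 38 (2.09%). Over the 1818 peaks, Pearson's r of the log2 folds was 0.71 between replicates 1 and 3, 0.51 between 1 and 2 and 0.50 between 2 and 3 (Spearman's rho 0.66, 0.48 and 0.46). These are descriptions across peaks of the same lists, which passed the same fold floor and are not independent replicates. The fold was highest in replicate 2 for 49.3% of core peaks, in replicate 3 for 36.9% and in replicate 1 for 13.8%. The highest of the 3 folds was less than 2 times the lowest in 1040 peaks (57.2%) and more than 4 times in 120.

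**Figure D2:**
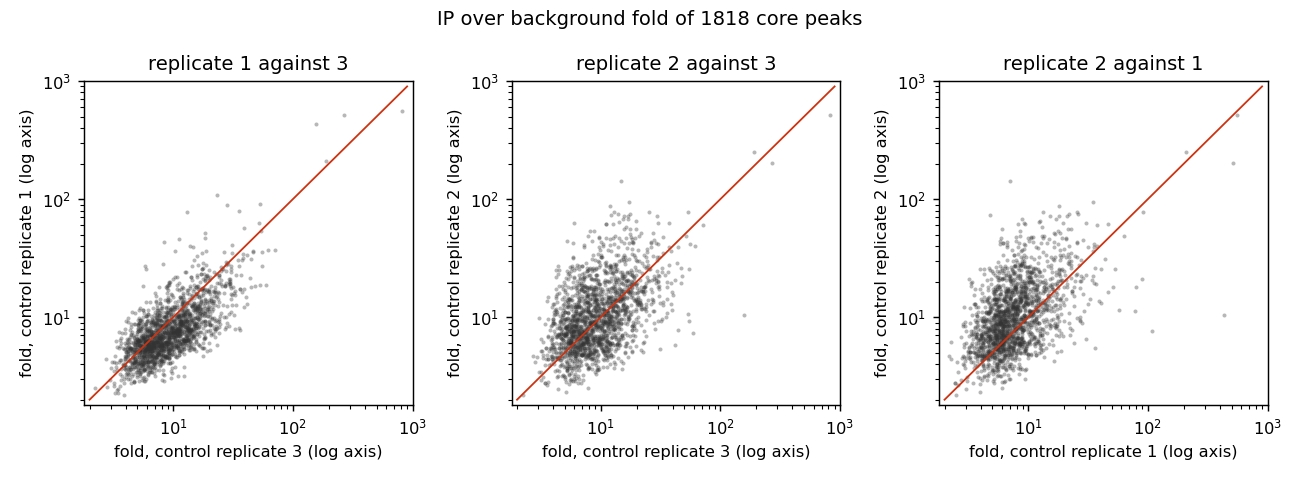
Fold of IP over background in pairs of control replicates (log axes), 1 point for each of the 1818 core peaks, with the line of equal folds in red. Replicates 1 and 3 lie closest to a line (r of log2 folds 0.71), and replicate 2 scatters more widely against both (0.51 and 0.50).

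Core peaks were longer and scored higher than the other peaks in each of the 3 lists, while their fold was higher in only 2. The median length was 282 against 203 bases in replicate 1, 245.5 against 147 in replicate 2 and 283 against 183 in replicate 3, a mean log2 difference of 0.61 ± 0.13 (SD, n = 3 lists). A longer peak has more bases that can be shared, so the rule itself bears on length and no test is given. When only peaks with both ends the same in all 3 lists counted as core, the log2 difference in length was 0.11. The median fold was 7.13 against 7.29 in replicate 1, 9.40 against 6.60 in replicate 2 and 8.80 against 6.29 in replicate 3 (log2 difference 0.32 ± 0.31, SD, n = 3 lists, exact p = 0.5). The median score, the authors' p-value on a negative log10 scale times 10, was 129 against 82.1, 307.5 against 155.5 and 331 against 106 in the same order (exact sign-flip p = 0.25). A core peak had to be called in all 3 lists, each with a lowest score of 50. The rule thus bears on fold and score too, and their tests cannot tell a trait of core peaks from an effect of the rule.

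The overlap that makes a core peak was mostly more than a few bases; since the rule uses the same coordinates, this describes the core and tests nothing. Both ends were the same in all 3 lists for 991 core peaks (54.5%), and at least 1 end was shared with both other lists for 1659 (91.3%). For each core peak, the smaller of its overlaps with the other lists was taken. It had a median of 237 bases and was under 10 bases in 6 core peaks.

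The core peaks gathered at gene starts. Of the 1471 core peaks whose gene could be placed in the start table (80.9%), 666 (45.3%) lay within 500 bases of an annotated start of their gene, and 376 covered one. Only 42 (2.86%) lay within 500 bases of the annotated end, and 769 (52.3%) lay near neither. In all 3 lists the peaks that match the core were near a start more often than the others: 45.4% against 31.5% in replicate 1, 44.2% against 12.51% in replicate 2 and 45.3% against 22.45% in replicate 3. The mean difference was 22.8 ± 8.9 percentage points (SD, n = 3 lists, two-sided exact sign-flip permutation p = 0.25, the smallest possible). It fell to 6.33 points with identical ends required in all 3 lists (exact p = 0.5). Shares near an end were lower in the core in all 3 lists, by 1.74 ± 0.55 points on average (SD, n = 3, exact p = 0.25).

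Peaks near a start were also the stronger ones. The median lowest fold was 6.92 for core peaks near a start, 5.86 near an end and 5.55 near neither, and the median lengths were 377, 941.5 and 181 bases. Genes with such a start peak include NOTCH2, a Notch receptor, with folds of 23.9, 17.9 and 21.9, and EIF3B, a subunit of translation initiation factor 3, with 15.6, 18.2 and 30.9. TGFBR1, the type I receptor of TGF-beta, had 23.4, 16.8 and 17.0, and TAB2, an adaptor of the TAK1 kinase, had 21.6, 56.0 and 19.6. Introns could not be told from exons here, so a distance along the gene is a distance on the chromosome and not on the mRNA.

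**Figure D3:**
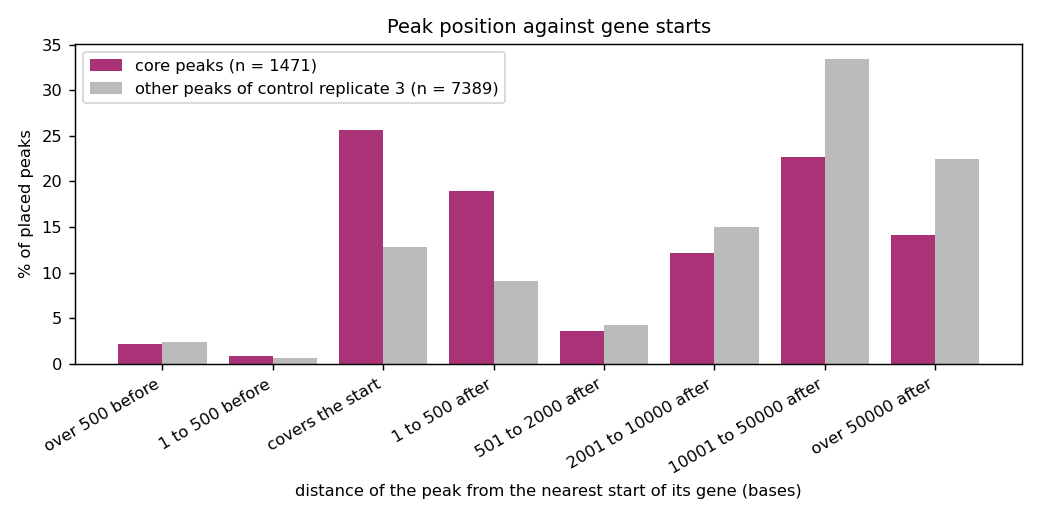
Share of placed peaks (%) by distance in bases from the nearest annotated start of their gene, for 1471 core peaks and 7389 other peaks of control replicate 3. Core peaks cover a start in 25.6% and lie 1 to 500 bases after it in 18.9%, against 12.8% and 9.03% of other peaks, and fewer of them lie far downstream.

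A few core peaks hold whole miRNA hairpins. Of 8 hairpins listed as overlapping a core peak, with a chromosome left out, 6 lie whole in the peak. With no chromosome left out, 9 core peaks (0.495%) overlap a hairpin, against 11 (0.122%) of the other peaks of replicate 3. Mature sequences from 3 of the whole hairpins, from RefSeq with the seed (bases 2 to 8) in capitals, show 3 different seeds. The hairpin of miR-4426 lies whole in a core peak at chr1:192716132-192716555 with folds of 17.2, 24.4 and 36.3. That of miR-6084 lies in a peak assigned to PINK1 (8.67, 16.1 and 20.2), and that of miR-1914 in a peak of UCKL1 (23.1, 7.78 and 18.2). The peaks are several times as long as the hairpins, so the overlap places a hairpin in the region and does not tell its RNA from that of the host gene.
hsa-miR-4426: gAAGAUGGacguacuuu
hsa-miR-6084: uUCCGCCAgucgguggccgg
hsa-miR-1914-5p: cCCUGUGCccggcccacuucug

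Most core genes held a single core peak, and a few genes held many. There were 1218 genes with 1, 166 with 2, 48 with 3, 9 with 4 and 15 with 5 or more, so 238 genes held 600 of the 1818 peaks. SMARCA4, the ATPase of the BAF chromatin remodelling complex, and MAD1L1, a protein of the spindle assembly checkpoint, had 7 each. The SMARCA4 peaks were modest, with lowest folds between 2.61 and 7.73, whereas MAD1L1 reached 16.4, 51.9 and 21.8 in replicates 1, 2 and 3.

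The non-muscle myosin heavy chains MYH9 and MYH14 and the ribosome-binding protein RRBP1 of the endoplasmic reticulum had 6 each. Their top core peaks had folds of 9.65, 9.89 and 12.5 in MYH9, 16.4, 16.7 and 22.2 in MYH14 and 8.85, 17.3 and 9.19 in RRBP1. Those with 5 were EIF3A, LIG1, TNIP1, CROCC, HDGFL2, SMC1A, PCNT, TRIOBP and TNRC18. Among these, CROCC and PCNT belong to centrosomes, SMC1A to cohesin, LIG1 is a DNA ligase and TRIOBP binds actin. The PCNT top peak had even folds of 10.2, 11.3 and 11.1, and that of TNIP1, an inhibitor of NF-kappa-B signalling, was 4.26, 25.7 and 6.64.

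The genes of the 5 longest core peaks encode a mucin, a plakin, a helicase and zinc finger proteins. MUC4, a membrane mucin, had a core peak of 4751 bases with folds of 6.97, 22.2 and 14.98. HIVEP3, a zinc finger protein, had one of 4284 bases, ZNF316 one of 4130 and EPPK1 (epiplakin, a keratin-binding plakin) one of 3989. HELZ2, a helicase and coactivator, had one of 3712 bases with folds of 12.6, 24.2 and 16.7. Peaks of 1000 bases or more made up 7.65% of the core (139 peaks) and 3.76% of the other peaks of replicate 3 (339). In all 5 genes the single long peak of replicate 3 overlaps 2 separate peaks of replicate 2.

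The authors' pathway column places 515 core genes in at least 1 pathway, and the spliceosome had the highest share among the 12 pathways with most core genes. A pathway's share is the percentage of its genes with a peak in control replicate 3 that hold a core peak, to be read against 24.4% over all genes. The spliceosome had 28 of 51 genes (54.9%, exact 95% interval 40.3 to 68.9, for counting only). Among them PUF60, a splicing factor, had folds of 12.5, 20.4 and 16.4. SNRPD1, a core Sm protein, had 11.3, 9.30 and 13.1, and EIF4A3, the helicase of the exon junction complex, had 9.16, 19.7 and 15.01.

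Pathways of the cytoskeleton and of cell contacts also had shares above 24.4%, though the interval of focal adhesion includes it. Regulation of actin cytoskeleton had 35 of 81 genes (43.2%, interval 32.2 to 54.7), with MYH14 and MYH9 and with BCAR1, an adaptor at focal adhesions (9.67, 32.5 and 16.1). Tight junction had 24 of 58 (41.4%, 28.6 to 55.1), among them CGN, the junction protein cingulin (20.5, 46.5 and 14.3), and GNAI2, a G protein alpha subunit (15.9, 18.2 and 22.8). Focal adhesion had 24 of 72 (33.3%, 22.7 to 45.4), with COL4A2, a chain of basement membrane collagen (13.3, 19.7 and 14.8), and the adaptor CRK (8.79, 16.2 and 13.7). BCAR1, CGN, COL4A2 and CRK were all highest in replicate 2.

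Endocytosis held the most core genes, 41 of 116 (35.3%, 26.7 to 44.8), and protein processing in the endoplasmic reticulum held 25 of 66 (37.9%, 26.2 to 50.7). Of the first, CLTB, a clathrin light chain, had folds of 35.7, 19.5 and 46.7, and SH3GL1, an endophilin, had 19.3, 25.6 and 25.3. Of the second, UBE2J2, a ubiquitin-conjugating enzyme of the endoplasmic reticulum, had 15.7, 17.4 and 30.5. The co-chaperone BAG1 had 10.5, 17.4 and 15.8, and SEC24B, a COPII coat subunit, had 9.46, 15.6 and 22.8. UBE2J2 and SEC24B were highest in replicate 3.

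The shares of the signalling pathways ran from 25.2% to 35.5%, against 24.4% over all genes. Pathways in cancer had 32 of 124 genes (25.8%), MAPK 28 of 111 (25.2%), PI3K-Akt 25 of 95 (26.3%) and Rap1 24 of 84 (28.6%). Their intervals include 24.4%, as do those of Hippo with 24 of 76 (31.6%) and cGMP-PKG with 22 of 62 (35.5%). The intervals are for counting only, since genes are not replicates, and do not decide which of the 12 pathways differ from the background. The MAPK members with the highest folds after AKT1 were TAOK3, a kinase upstream of p38 (25.1, 22.9 and 19.9), and TAB2. Hippo included WWC1, the scaffold KIBRA, with 12.2, 63.6 and 14.3, and AXIN1, a scaffold of the beta-catenin destruction complex, with 15.8, 13.6 and 20.2. MAP2K2, the kinase MEK2, stood in Rap1 and cGMP-PKG with 16.0, 17.5 and 26.4. WWC1 is over 4 times higher in replicate 2 than in the other lists.

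These pathways share genes, and genes with more peaks have more chance of a core peak. The 12 pathways hold 211 distinct core genes, of which 73 stand in at least 2 of them and FGFR2, a fibroblast growth factor receptor, in 6. Of genes with 1 peak in replicate 3, 17.2% were core genes, against 26.3% with 2 and 44.9% with 3 or more. Among genes with 1 peak only, a comparison added after the data were seen, the spliceosome still had 16 of 32 (50%) against 17.2%, and Hippo had 17 of 48 (35.4%). Actin cytoskeleton had 6 of 33 (18.2%) and focal adhesion 4 of 36 (11.1%). Protein processing in the endoplasmic reticulum had 12 of 38 (31.6%), tight junction 7 of 26 (26.9%) and endocytosis 13 of 52 (25%).

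Of the 69 pathways with at least 30 genes in replicate 3, 45 lay above 24.4%. Neuroactive ligand-receptor interaction had 1 of 32 genes (3.12%), pyrimidine metabolism 4 of 37 (10.8%), purine metabolism 6 of 49 (12.2%) and lysosome 5 of 40 (12.5%), the lowest of the 69, while inositol phosphate metabolism had 12 of 36 (33.3%). By the molecular function column, poly(A) RNA binding held 195 of 477 genes (40.9%) and actin binding 56 of 140 (40%). Sequence-specific transcription factor activity was at the background, with 79 of 327 (24.2%). Genes with a ZNF symbol, most of which encode zinc finger proteins, had 18 of 161 (11.2%).

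The gene lists for keratinocytes and for general cell functions were read against 15.5%, the share of the 9407 genes with a peak in any control list that hold a core peak. Chromatin genes had the highest share by the rule used, and under 7 of 10 alternatives. The spliceosome led with identical ends (42.9% against 32.5%) and with equal numbers of peaks (38.5% against 31.4%), and basal and hemidesmosome genes led without replicate 1 (80% against 60%). Of 40 histone modifiers and remodellers, all 40 had a peak in some list and 21 (52.5%) held a core peak. After CHD3, the highest was ARID1B, a BAF subunit, with folds of 18.5, 51.9 and 27.3. SETD2, the methyltransferase of histone H3 lysine 36, had 12.5, 15.9 and 14.4. Of the 40, 33 had a peak in replicate 3, and of the 7 with exactly 1 peak there, 2 held a core peak (28.6%, against 17.2% over all such genes).

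The list of spliceosome genes had 10 of 21 (47.6%), with even folds. DHX15, a helicase of spliceosome disassembly, had 8.88, 7.55 and 7.32, HNRNPM had 6.74, 9.11 and 8.16, and PRPF6, a protein of the tri-snRNP, had 6.69, 9.26 and 8.48. Ubiquitin ligases and proteases had 12 of 32 (37.5%), among them USP7, which removes ubiquitin from MDM2 and p53, with 16.8, 19.1 and 19.9. USP24 had 13.8, 19.3 and 18.7 and the ligase UBE3C had 6.40, 11.4 and 7.86. HNRNPM and PRPF6 have several core peaks, 2 and 4.

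Some genes of keratinocyte structure held a core peak, but most on the lists did not. Those that did were 8 of 29 listed desmosome and junction genes, 4 of 18 basal and hemidesmosome genes and 3 of 34 differentiation genes. The junction share was 12.5% against 10.8% with equal numbers of peaks and 14.3% against 10.1% with a score of at least 100. Of junction genes with 1 peak in replicate 3, 2 of 9 held a core peak (22.2% against 17.2%). Of the desmosome and junction genes with a peak in any control list, 8 of 24 (33.3%) held a core peak. Among them were CGN, the tight junction protein TJP1 (7.67, 10.5 and 11.3) and DSC3, desmocollin 3 of basal desmosomes (5.56, 7.89 and 5.61). Basal and hemidesmosome genes had 4 of 15 (26.7%), with 12 of 15 (80% against 31.7% of all genes) when replicate 1 was left out and 5 of 14 (35.7% against 35.6%) when replicate 2 was. Of those with 1 peak in replicate 3, 1 of 6 held a core peak (16.7% against 17.2%). DST, whose epithelial form is a plakin of hemidesmosomes, had 14.8, 45.5 and 12.03. COL17A1, the transmembrane collagen of hemidesmosomes, had 6.93, 12.6 and 10.6, and ITGA6, an integrin of the same structure, had 5.83, 9.27 and 10.9. PLEC, which encodes plectin, had 5.55, 20.8 and 13.9. All but ITGA6 were highest in replicate 2.

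Of the 34 differentiation genes, 12 had a peak in any control list, and 3 of these 12 (25%) held a core peak. Of those with 1 peak in replicate 3, 1 of 4 held one (25% against 17.2%). All 3 core genes encode parts of the cornified envelope. IVL, involucrin, had 14.7, 15.4 and 40.5, PPL, periplakin, 7.79, 9.22 and 13.9, and EVPL, envoplakin, 5.72, 20.5 and 10.8. KRT5, a keratin of basal cells, had 1 peak in replicate 2 (5.24) and 1 in replicate 3 (5.82) and none in replicate 1, and no peak is named for its partner KRT14. The lists show peaks and not expression, so they cannot check the cell type by expression level. Among markers of cells that a keratinocyte culture should lack, a few had a peak in any control list. They were 1 of 9 genes of melanocytes, none of 10 of fibroblasts, 2 of 8 of endothelium and 1 of 12 of immune cells. None held a core peak, but with so few genes this cannot show that such cells are absent. Without replicate 2, 1 of 2 endothelial genes had a peak shared by replicates 1 and 3 (50% against 35.6% of all genes).

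Genes of RNA modification had 8 of 31 in the core (25.8%), NAT10 and THUMPD1 not among them. NAT10 had 1, 2 and 2 peaks in replicates 1, 2 and 3, with top folds of 3.40, 4.91 and 5.01, at positions that did not recur in all 3. THUMPD1 had 1 peak, in replicate 2, with a fold of 11.1. ZC3H13, a regulator of the m6A methyltransferase complex, was the highest of the list with 79.0, 18.2 and 35.8, and VIRMA, of the same complex, had 10.3, 6.24 and 18.2. PUS1, a pseudouridine synthase, had 23.1, 16.0 and 17.2, and YTHDF3, a reader of m6A, had 7.04, 6.90 and 10.5. In ZC3H13 the fold was over 4 times higher in replicate 1 than in replicate 2.

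The lists of signalling, growth and stress lay between 20% and 30%, but several were not above the background among genes with 1 peak in replicate 3. Against 17.2%, those shares were 16.7% for EGFR, Notch and Wnt signalling, 15.4% for RNA modification and 11.1% for ribosome biogenesis, with 0 of 7 translation factors and 0 of 5 genes of glycolysis and hypoxia. They were 45.5% for cell cycle and 38.5% for the unfolded protein list, from 11 and 13 genes. EGFR, Notch and Wnt signalling had 7 of 27 (25.9%), with NOTCH2 and AXIN1 first, DVL3, a Dishevelled protein, at 8.62, 11.5 and 15.4, and NOTCH1 at 7.38, 16.4 and 20.6. Cell cycle and mitosis had 7 of 28 (25%), among them the phosphatase CDC25A (8.48, 13.1 and 7.99), the transcription factor E2F1 (24.0, 6.02 and 12.5) and the cyclin CCND3 (5.46, 12.98 and 6.45). The unfolded protein and stress list had 6 of 23 (26.1%), with the endoplasmic reticulum chaperones PDIA4 (9.46, 9.76 and 9.04) and HSP90B1 (8.73, 5.90 and 7.08) and the heat shock factor HSF1 (7.48, 12.3 and 15.3). PDIA4 had the most even folds of these.

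In glycolysis and hypoxia, 6 of 22 (27.3%) held a core peak, and the enzymes of its first steps were among them. The hexokinase HK2 had 5.71, 6.52 and 14.2, and the phosphofructokinases PFKL and PFKP had 5.62, 8.35 and 6.02 and 5.50, 8.82 and 14.9. Oxidative phosphorylation had 4 of 15 (26.7%), where the complex I subunit NDUFS6 had 13.3, 5.25 and 21.6, and NDUFA8, NDUFA10 and UQCRH were below 6 in every list. That list was below its background with a fold of at least 4 (1 of 12, 8.33% against 14.8%), a score of at least 100 (1 of 13, 7.69% against 10.1%) and equal numbers of peaks (0 of 7 against 10.8%). Proteasome had 5 of 20 (25%), with the base ATPase PSMC1 at 14.7, 15.3 and 8.99. All 4 of the core genes of oxidative phosphorylation have a core peak over a gene start.

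Ribosome biogenesis had 8 of 34 (23.5%) and translation factors 4 of 19 (21.1%). BOP1, an assembly factor of the large subunit, had 12.2, 13.2 and 15.4, NCL, nucleolin, 11.8, 9.11 and 10.4, FBL, the rRNA methyltransferase fibrillarin, 7.39, 8.34 and 9.48, and POLR1A, the largest subunit of RNA polymerase I, 7.17, 6.29 and 8.20. These 4 genes varied little between lists. Of the translation factors, EIF3A had 10.9, 13.4 and 7.70 and EIF5B, which joins the ribosomal subunits, had 18.4, 12.7 and 5.59. EIF3C, which has a near-identical copy in the genome and is therefore uncertain, had only 2.45, 2.75 and 3.45.

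A few lists had nearly no core peak. None of 22 p53 and apoptosis genes with a peak held one, nor did any of the 9 cytosolic ribosomal protein genes with a peak, out of 78 listed. RPS3 and RPS9 had a peak in all 3 lists, at positions that were not shared by all, and ribosomal protein genes have many near-identical copies in the genome, so their values are uncertain. Cholesterol and fatty acid synthesis had 1 of 18 (5.56%), the sterol-responsive factor SREBF2 (3.77, 7.17 and 4.49). The activated keratinocyte list had 1 of 19 (5.26%), the AP-1 subunit FOSL1 (6.01, 6.80 and 6.51). Of the 13 mitochondrially encoded genes none had a peak in any control list. With replicate 1 left out, 6 of 22 p53 genes (27.3%) and 9 of 18 cholesterol genes (50%) had a peak shared by replicates 2 and 3. So did 3 of 19 activated keratinocyte genes (15.8%) and 2 of 9 ribosomal protein genes (22.2%), against 31.7% of all genes. With replicate 2 left out, all of these lists lay below the 35.6% of all genes. The shares were 0 of 14 for p53, 16.7% for cholesterol, 27.3% for activated keratinocytes and 25% for ribosomal proteins. Of genes with 1 peak in replicate 3, 1 of 8 held a core peak in the cholesterol list and 1 of 8 in the activated keratinocyte list (12.5% each, against 17.2%). None of 10 p53 genes and none of 4 ribosomal protein genes did, so these shares rest on few genes.

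**Figure D4:**
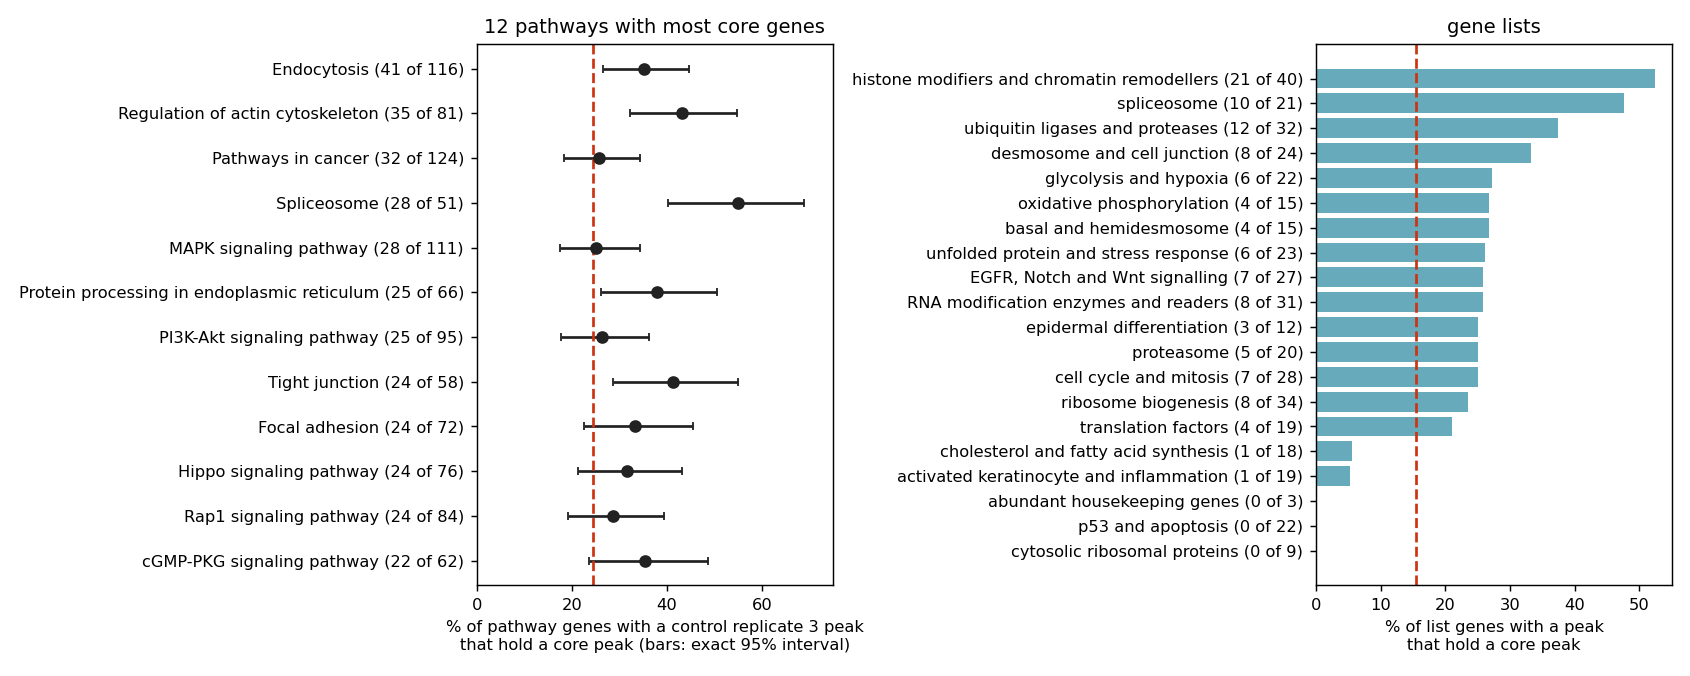
Left, share (%) of the genes with a control replicate 3 peak that hold a core peak, for the 12 pathways with most core genes, with exact 95% intervals and the 24.4% over all genes as a dashed line. Right, the same for gene lists with at least 3 genes with a peak in any control list, against 15.5%; chromatin genes (52.5%) and the spliceosome (47.6%) lead, and p53 and ribosomal protein genes are at 0.

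Chromosome 19 held the most core peaks. Without replicate 1, chromosome 1 held more, with 445 peaks against 435, and without replicate 2 both held 302. By the rule used, chromosome 19 has 202 peaks on 141 genes, which make up 11.1% of the core and 20.2% of the chromosome's peaks in replicate 3 (exact 95% interval 17.8 to 22.9, for counting only), against 16.8% over all chromosomes. ERCC1, LMNB2, CSNK1G2, SMARCA4, MYH14 and LIG1 are among its core genes. Chromosome 1 followed with 186 core peaks, at the background with 16.8% of its peaks. Chromosome 19 lost its distance from the background when equal numbers of peaks were taken from each list, highest scores first, with 16.7% against 16.3%.

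The X chromosome had the lowest share by the rule used, though under only 3 of 10 alternatives, with 34 core peaks or 12.3% of its peaks in replicate 3 (8.68 to 16.8), and chromosome 3 was next with 12.6% (9.95 to 15.7). Per 100 coding genes in RefSeq, 7.29 were core genes over chromosomes 1 to 22 and X. Chromosome 9 had 10.7, chromosome 16 had 9.95 and chromosome 19 had 9.72, while X had 3.30. SMC1A was the X-linked gene with the most core peaks, and its top core peak had folds of 6.36, 9.11 and 7.60. Neighbouring peaks of 1 gene are not independent, so these intervals are too narrow.

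**Figure D5:**
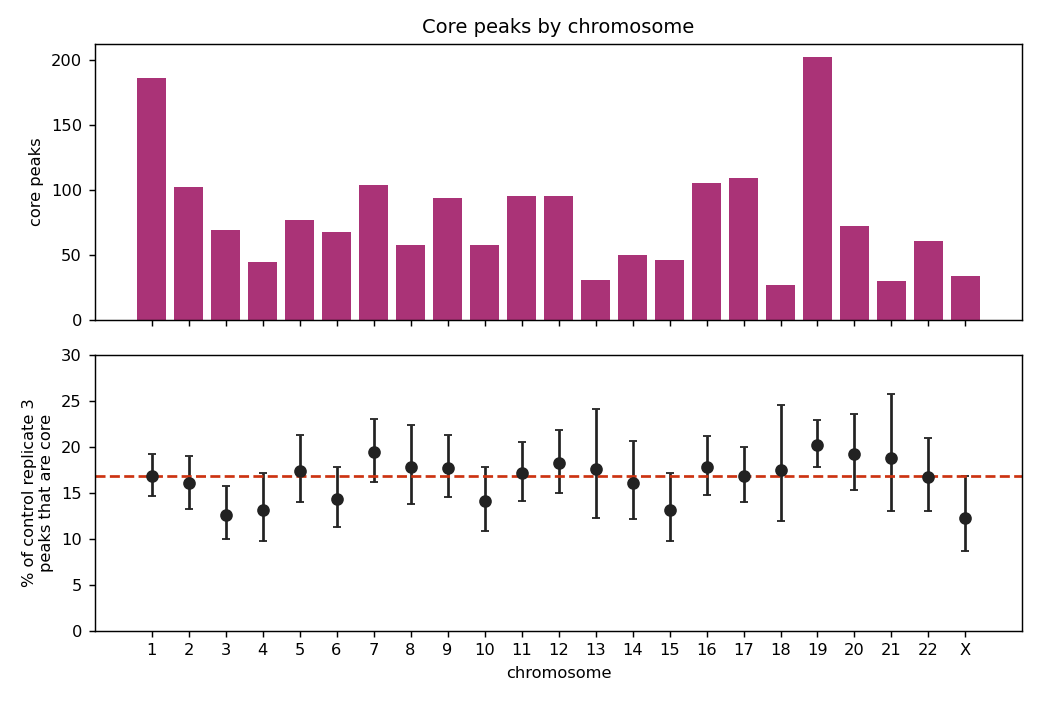
Number of core peaks by chromosome (top) and share (%) of each chromosome's control replicate 3 peaks that are core, with exact 95% intervals (bottom) and the 16.8% over all chromosomes as a dashed line. Chromosomes 19 and 1 hold 202 and 186 core peaks, and the share runs from 12.3% on X to 20.2% on chromosome 19.

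Not every gene with a peak in all 3 lists held a core peak. Of 2332 genes with a peak in all 3 control lists, 62.3% held a core peak and 880 did not. RPS9, with folds of 15.6, 20.1 and 9.23 on peaks that do not all overlap, is one of these. The median span of core genes in RefSeq was 45.3 kb, against 41.0 kb for the other genes of replicate 3, and core genes had on average 2.52 peaks in replicate 3 against 1.82 over all its genes.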

How the data were processed

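The deposited files are separate lists of mRNA peaks, 1 for each replicate; no pooled list was used. Per the labels, RNA was extracted with Trizol, and each replicate gave an IP and an input library by a low-input kit. The submitters' processing notes name HISAT2 2.0.4, cutadapt 1.9.3, FastQC and the build GRCh38. Peak names carry the name MACS; its version and settings are not given in the sources used here. Each deposited peak has, per the file headers, a score (the p-value on a negative log10 scale, times 10), a fold enrichment (a linear ratio), a false discovery rate and a length in bases. The deposited false discovery rate has no stated unit and was read as percent, since its values reach 100. The lowest deposited score was 50 in each control list and the lowest deposited fold 2.00. Read depth is unknown.

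Lists were intersected with at least 1 shared base by code tested on simulated data and checked against bedtools 2.31.1, in Python 3.11.15 with pandas 2.3.3 and scipy 1.17.1. Coordinates are printed counting from 1. Where several peaks of a list overlap a core peak, the highest fold was taken. Gene starts, ends, small RNA genes and sequences came from RefSeq tables of GRCh38.p14, of which 1427 of the 1456 core genes matched by identifier. Core and other peaks were compared within each list. The differences, except in length, were tested over the 3 lists with a two-sided exact sign-flip permutation test. Nothing says that replicates were separate cultures, so p-values rest only on the signs and relative sizes of the differences in these lists. With 3 lists the smallest possible p-value of this test is 0.25. Intervals are exact binomial and cover counting error only.

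Named genes are the 15 with the highest lowest-of-3 fold, those with most core peaks (15 genes, because of a tie), up to 4 for each gene list, up to 3 for each of the 12 largest pathways, the 5 longest peaks, NAT10 and THUMPD1. Small RNA neighbours, miRNA hosts and genes with start sequences were named beyond this rule, after their values were seen. A few genes that this rule names, and 1 sequence, are not reported here. The members and lists were chosen with earlier results of these data known. Alternatives were other overlap rules, fold and score minimums, another anchor list, equal list lengths and leaving out each list.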

Additional observations from a re-analysis of the deposited data

How the results depend on the processing

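The number of core peaks, 1818 on 1456 genes, was 991 on 765 genes with identical ends in all 3 lists, 950 on 803 genes with a score of at least 100, and 704 on 614 genes with equal numbers of peaks from each list. With 1 list left out it ranged from 2226 to 4246 peaks and from 1710 to 2922 genes, since overlap with a single other list was then enough. A shared length of at least 50% of each peak, a fold of at least 4 and another anchor list kept both counts within 1.5 times. The share of core genes among the genes of the anchor list, 24.4%, was 21.3% with 50% shared length, 12.8% with identical ends, 18.9% with the score minimum and 19.8% with equal numbers. Anchored on control 1 or 2 it was 46.4% or 18.3%, and it ranged from 21.6% to 49.1% with 1 list left out. Chromosome 19 held 11.1% of core peaks and 12.7% with identical ends. At least 10 of the 12 pathways lay above the share over all genes under each of 11 alternatives. The 12 were picked for having the most core genes in this same core, which favours a high share. The alternatives reuse the same lists, so this count is no independent check. Of the gene lists, 12 to 16 lay above their background under each of 10 alternatives, against 15 by the rule used. Oxidative phosphorylation fell below under 3. Epidermal differentiation did so without replicate 2 (30% against 35.6%), EGFR, Notch and Wnt signalling (9.52%) and glycolysis and hypoxia (6.25%) with equal numbers (10.8%), and translation factors (31.6%) and the proteasome (30%) without replicate 1 (31.7%). Averaged over the lists, the differences in fold, length and share near a start between core and other peaks kept their sign under each alternative. Single lists did not always agree in direction. The fold was not higher in replicate 1 by the rule used. With identical ends, the lists did not all agree in direction for length, for which no test is given. Nor did they for share near a start (exact sign-flip p = 0.5, against 0.25 when all 3 lists agree). With 1 list left out, the mean log2 difference in fold, 0.32 with all lists, ranged from 0.18 to 0.25. No paired analysis was possible because no groups were compared; the tests set core against other peaks within each list. Depth is unknown, so a peak missing from the shorter list of control 1 may be a matter of depth or of biology, which cannot be told apart.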
